A study of Arabidopsis thaliana with 18 samples.

Results

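The myo-inositol oxygenase genes of Arabidopsis thaliana are MIOX1 (AT1G14520), MIOX2 (AT2G19800), MIOX4 (AT4G26260) and MIOX5 (AT5G56640), and they are described here as 4 genes of the 32833 listed for every library. They were taken by gene identifier. The family was chosen by the expression of MIOX4, which was higher in bro1-1 than in WT at mock and not after ABA, so its values are a description with no test, whereas MIOX1 and MIOX2 were tested. RNA sequencing covered 18 libraries of whole seedlings aged 2 weeks, in 6 groups of 3, grown on half-strength Murashige and Skoog medium with sucrose. WT was Col-0 at mock (0 µM ABA), after 100 µM ABA for 2 h and after 100 µM ABA for 4 h, and bro1-1 was sampled at the same 3 points. The bro1-1 line carries a T-DNA insertion in AtBro1 (AT1G73390), which encodes a Bro1-like domain protein, and it was the sole mutant line sequenced. The mock libraries carry no harvest time and serve both ABA times, so the effects of ABA and of any change over the hours of treatment cannot be told apart.

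Myo-inositol oxygenases open the inositol ring with molecular oxygen and release D-glucuronic acid. A kinase and a pyrophosphorylase then turn glucuronic acid into UDP-glucuronic acid, a precursor of the xylose, arabinose, apiose and galacturonic acid of the cell wall, and UDP-glucose dehydrogenases make the same nucleotide sugar from UDP-glucose. The enzyme step also removes free myo-inositol, which is the starting point of phosphatidylinositol, phytate and galactinol. In Arabidopsis, MIOX1 and MIOX2 are known from most organs, MIOX4 and MIOX5 mainly from flowers and pollen, and MIOX2 is known to respond to sugar supply.

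Total expected counts lay between 15568034 and 17853178 per library, with a median of 16958399, and the TMM scaling factors lay between 0.892 and 1.13. No pair of libraries within a group held identical values. AtBro1 was at 13.8 TPM (a transcript level corrected for transcript length and library size) on average in WT mock and 9.62 TPM in bro1-1 mock, and its transcript rose with ABA in both genotypes, by 4.93 in WT and 3.99 in bro1-1 on the log2 scale at 2 h (edgeR adjusted p = 0.000143 and 1.59e-05). At 2 h bro1-1 was below WT by a log2 value of -1.38 (SE, the standard error, 0.149, edgeR adjusted p = 0.044). At 4 h the groups did not overlap, but the difference did not hold after adjustment (-1.51, edgeR adjusted p = 0.199). The share of all genes with separate groups was not counted there. At mock, where the log2 value was -0.45 (edgeR adjusted p = 1), the groups overlapped in CPM, from 12.6 in WT and up to 12.7 in bro1-1, and not in TPM, from 11.2 in WT and up to 10.4 in bro1-1. CPM is the count scaled to library size. A pair of mock libraries stood apart from the others of their groups. The 4 leaf markers summed to 8183 TPM in WT mock replicate 2 against 23933 and 21478 TPM in replicates 1 and 3, and to 10470 TPM in bro1-1 mock replicate 3 against 23135 and 21631 TPM. The chi-square of counts per degree of freedom was 153 and 109 between WT mock replicate 2 and the other WT mock libraries, which had 33.7 between them, and 71.8 and 76.5 for bro1-1 mock replicate 3, where the others had 9.59. In the ABA libraries the leaf markers summed to between 9160 and 23922 TPM. The 7 pollen and flower markers summed to between 0.94 and 9.39 TPM, and VGD1, a pollen pectin methylesterase, was at 0 in every library.

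The genes are placed on the TAIR10.1 genome, whose transcript lengths were the same as those in the files, within 0.5 base, for 99.25% of 20176 genes with a single transcript. MIOX1 occupies bases 4968134 to 4970311 of chromosome 1 (minus strand) and has 4 transcripts with 7 to 9 exons. MIOX2 occupies bases 8530865 to 8533779 of chromosome 2 (minus strand), with 1 transcript of 11 exons. MIOX4 is at bases 13297695 to 13300444 of chromosome 4 (plus strand) and MIOX5 at 22927230 to 22929717 of chromosome 5 (minus strand), each with 2 transcripts. No other annotated gene overlaps any of them. The coding sequences of MIOX4 and MIOX5 were the closest pair, identical at 81.4% of 942 aligned bases. The other pairs were identical at 68.3% to 73.2% of their aligned bases. Between the whole transcripts of MIOX4 and MIOX5, compared without gaps, the longest identical run was 38 bases, with at least 7 differences in every stretch of 100 bases. All 72 counts of the family, of which 18 were the 0 counts of MIOX5, were whole numbers within 0.001, which shows no read divided between 2 genes. Whole counts were common, since 1.77% to 2.06% of all genes in a library had a count that was not whole.

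The promoters of MIOX1, MIOX2 and MIOX4 are shown because MIOX1 was called higher and MIOX2 lower after ABA, and because MIOX4 chose the family. Each sequence is the 300 bases before the annotated transcript start, 5′ to 3′ on the strand of the gene, from the RefSeq copy of TAIR10.1, in the windows chr1:4970312-4970611, chr2:8533780-8534079 and chr4:13297395-13297694. Capitals mark matches on either strand to ACGTG, the core of the ABA-responsive element, to CACGTG, the G-box, which contains ACGTG on both strands, to CCGAC, the core of the dehydration-responsive element, and to TATCCA, known from sugar-responsive promoters.
MIOX1: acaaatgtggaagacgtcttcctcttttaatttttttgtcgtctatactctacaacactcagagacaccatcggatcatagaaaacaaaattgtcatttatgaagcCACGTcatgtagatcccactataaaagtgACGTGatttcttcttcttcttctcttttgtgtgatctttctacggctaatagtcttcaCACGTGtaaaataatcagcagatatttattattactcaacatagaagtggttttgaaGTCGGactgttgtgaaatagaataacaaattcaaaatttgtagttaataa
MIOX2: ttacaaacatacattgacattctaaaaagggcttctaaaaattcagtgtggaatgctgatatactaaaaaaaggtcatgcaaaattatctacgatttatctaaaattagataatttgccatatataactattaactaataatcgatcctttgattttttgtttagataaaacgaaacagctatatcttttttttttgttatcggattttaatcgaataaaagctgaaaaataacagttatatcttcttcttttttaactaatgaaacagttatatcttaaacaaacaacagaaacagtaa
MIOX4: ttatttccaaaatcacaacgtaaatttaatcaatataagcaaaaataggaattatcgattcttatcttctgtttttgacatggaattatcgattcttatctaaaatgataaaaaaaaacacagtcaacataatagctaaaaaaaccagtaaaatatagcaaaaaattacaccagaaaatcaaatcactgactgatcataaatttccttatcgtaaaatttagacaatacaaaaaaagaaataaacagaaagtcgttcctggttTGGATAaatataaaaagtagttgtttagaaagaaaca
The window of MIOX1 held 4 matches to ACGTG, of which 2 lie within a single CACGTG at 107 to 102 bases before the start, and 1 match to CCGAC on the opposite strand. The window of MIOX2 held none of these 4 motifs, and that of MIOX4 held 1 match to TATCCA, on the opposite strand 37 to 32 bases before the start. Over 27443 promoters of the same length, ACGTG was in 25.6%, CACGTG in 7.09%, CCGAC in 13.9% and TATCCA in 16.2%. A match is a run of letters only, and none of these was measured as a binding site.

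Without ABA, MIOX2 was the most abundant transcript of the family in every library, MIOX1 was far lower, MIOX4 was lower still, at 11 to 29 counts in WT and 69 to 97 in bro1-1, and MIOX5 was not detected. At mock, MIOX2 was at 399.7 ± 224 TPM in WT and 409 ± 51.2 TPM in bro1-1 (mean ± SD, n = 3, as in all values of this form). It made up 97.0% ± 1.40 of the summed TPM of the family in WT mock and 94.98% ± 1.21 in bro1-1 mock. MIOX1 made up 2.77% ± 1.38 and 3.73% ± 1.43 in the same groups. After ABA, MIOX1 and MIOX2 stood close together: at 2 h in WT they were at 74.0 ± 17.4 and 84.2 ± 39.3 TPM, and in bro1-1 at 61.9 ± 29.6 and 50.4 ± 25.3 TPM, with overlapping ranges in both genotypes. At 4 h in WT the ranges still overlapped, at 65.2 to 89.1 TPM for MIOX1 and 40.2 to 67.9 TPM for MIOX2, but MIOX1 was above MIOX2 within each library. At 4 h in bro1-1 every MIOX1 value, from 64.8 TPM upward, was above every MIOX2 value, which reached 64.4 TPM. The shares at 4 h were alike in the genotypes. MIOX1 made up 58.7% ± 2.26 in WT and 59.8% ± 12.1 in bro1-1, and MIOX2 40.3% ± 2.73 and 39.9% ± 11.9. The summed TPM of the family went from 411 ± 227 in WT mock to 160 ± 40.5 at 2 h and 131 ± 25.4 at 4 h, and in bro1-1 from 431 ± 56.7 to 113 ± 53.7 and 118 ± 26.1. The lowest mock library, at 223 TPM in WT and 371 TPM in bro1-1, was above the highest ABA library of the same genotype, at 202 TPM in WT and 175 TPM in bro1-1. In whole seedlings, less RNA per cell and fewer cells that hold the RNA cannot be told apart.

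**Figure D1:**
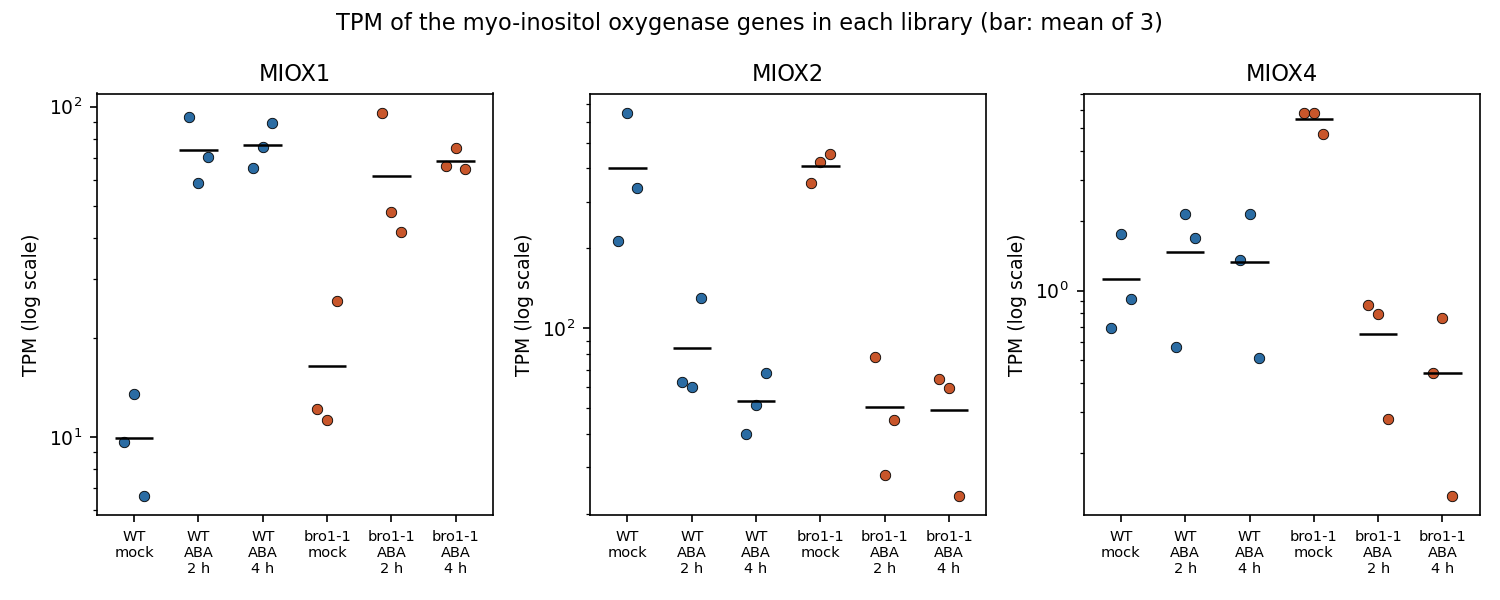
TPM of MIOX1, MIOX2 and MIOX4 on log axes in each of the 18 libraries, with WT in blue, bro1-1 in orange and a bar at the mean of 3. All ABA libraries lie above all mock libraries of their genotype for MIOX1 and below them for MIOX2, whereas the 3 bro1-1 mock libraries of MIOX4, at 4.74 to 5.84 TPM, lie above every other library.

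MIOX1 rose after ABA in both genotypes and at both times. In WT, 162, 205 and 105 counts were found at mock, 1525, 940 and 1132 at 2 h, and 1027, 1168 and 1453 at 4 h. In bro1-1 they were 199, 192 and 349 at mock, 1478, 761 and 666 at 2 h, and 1067, 1208 and 1018 at 4 h. Every ABA library was higher than every mock library of its genotype, while the groups at 2 h and 4 h overlapped. In WT, the count scaled to library size (CPM) went from 8.45 ± 2.49 to 75.2 ± 15.1 at 2 h and 71.9 ± 16.8 at 4 h. The log2 fold changes were 3.16 (SE 0.264, edgeR quasi-likelihood test with Benjamini-Hochberg adjustment, adjusted p = 0.000374) and 3.13 (SE 0.274, edgeR adjusted p = 0.000318). In bro1-1, the level went from 14.4 ± 4.93 CPM to 60.9 ± 27.2 and 63.7 ± 10.2 CPM, with log2 fold changes of 2.07 (SE 0.358, edgeR adjusted p = 0.00342) and 2.17 (SE 0.252, edgeR adjusted p = 0.000416). With a call defined by both an adjusted p below 0.05 and a log2 fold change beyond 1 in either direction, MIOX1 was called higher in 4 of 4 comparisons with mock. Of all genes tested, 10.9% and 13.5% were called higher at 2 h and 4 h in WT, and 13.4% and 15.5% in bro1-1. Separate groups, whichever was higher, were found for 46.8% and 50.1% of the genes in WT and for 55.2% and 55.1% in bro1-1, so the absence of overlap alone was common among the genes tested. Between 2 h and 4 h the log2 fold changes of MIOX1 were -0.06 in WT (SE 0.208) and 0.07 in bro1-1 (SE 0.292), with edgeR adjusted p of 0.889 and 0.931, where 3.67% and 1.06% of all genes were called.

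MIOX2 moved in the opposite direction. In WT, 4247, 11770 and 6435 counts were found at mock, 1259, 1166 and 2530 at 2 h, and 787, 1009 and 1344 at 4 h. In bro1-1 they were 6849, 8341 and 7952 at mock, 1466, 546 and 882 at 2 h, and 1275, 1182 and 441 at 4 h. Each mock library was higher than each ABA library of its genotype, and the WT mock libraries were further apart from one another than those of bro1-1. In WT, the level went from 405 ± 206 CPM to 106 ± 53.9 CPM at 2 h and 61.9 ± 19.7 CPM at 4 h, with log2 fold changes of -1.93 (SE 0.472, edgeR adjusted p = 0.0231) and -2.67 (SE 0.421, edgeR adjusted p = 0.00327). In bro1-1, it went from 452 ± 52.4 CPM to 60.3 ± 28.1 and 56.3 ± 27.6 CPM, with log2 fold changes of -2.91 (SE 0.338, edgeR adjusted p = 0.00058) and -2.98 (SE 0.406, edgeR adjusted p = 0.000891). MIOX2 was thus called lower in 4 of 4 comparisons with mock, where 6.8% and 7.41% of all genes were called lower at 2 h and 4 h in WT, and 8.45% and 8.24% in bro1-1. The call at 2 h in WT rested on few libraries, since it was lost without WT mock replicate 3 (edgeR adjusted p = 0.0568), without WT ABA 2 h replicate 1 (edgeR adjusted p = 0.0897) and without WT ABA 2 h replicate 2 (edgeR adjusted p = 0.0925), with log2 fold changes of -1.99, -1.74 and -1.72. Over all alternatives the adjusted p of this comparison ranged from 0.000231 to 0.0925. The difference between 2 h and 4 h passed no threshold, at log2 fold changes of -0.76 in WT (SE 0.354, edgeR adjusted p = 0.213) and -0.10 in bro1-1 (SE 0.449, edgeR adjusted p = 0.933).

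**Figure D2:**
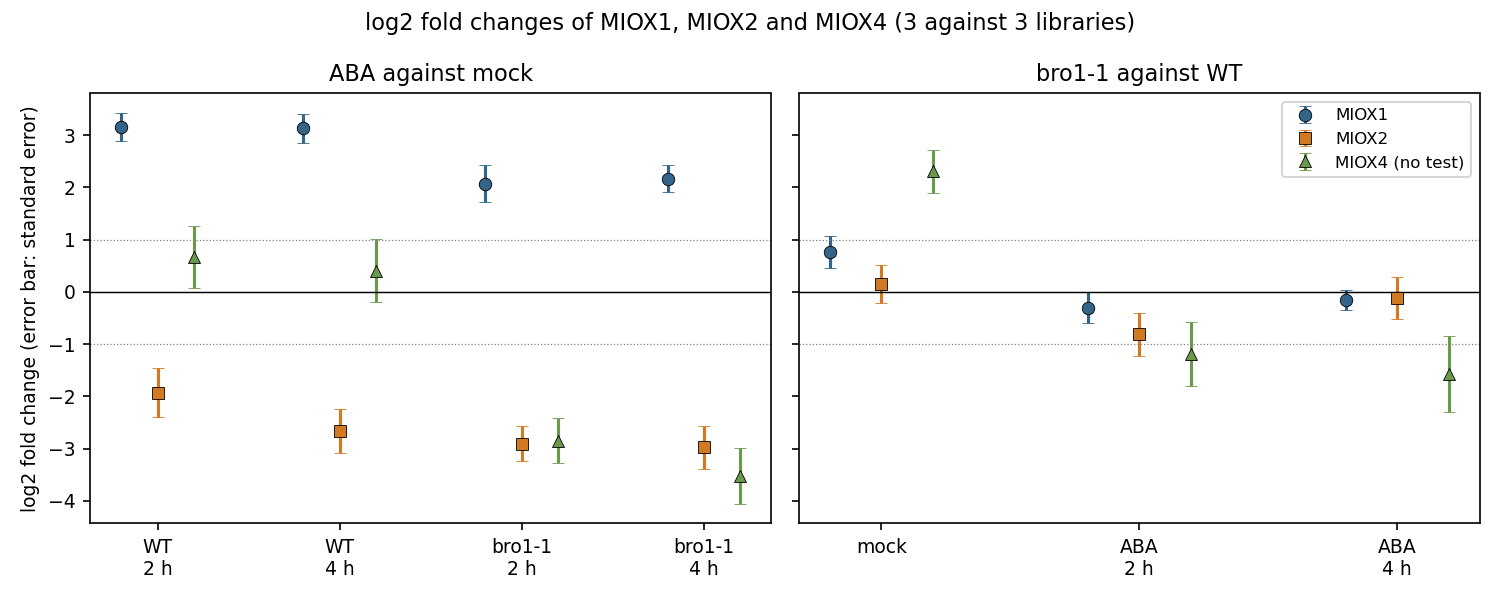
Log2 fold changes with standard errors of MIOX1 (circles), MIOX2 (squares) and MIOX4 (triangles, no test), for ABA against mock in each genotype on the left and bro1-1 against WT at each point on the right, each from 3 against 3 libraries. Dotted lines mark an absolute log2 fold change of 1. MIOX1 lies above 2 and MIOX2 below -1.9 in all 4 comparisons with mock, and MIOX4 at mock, at 2.31, is the largest genotype difference shown.

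The mock libraries that stood apart by their leaf markers also held the highest MIOX1 mock levels, 10.9 CPM in WT mock replicate 2 and 20.1 CPM in bro1-1 mock replicate 3, and WT mock replicate 2 held the highest MIOX2 and MIOX4 levels of its group. Without WT mock replicate 2, the log2 fold changes after ABA in WT were 3.38 and 3.35 for MIOX1 and -1.48 and -2.21 for MIOX2 at 2 h and 4 h, and all 4 calls were kept. Without bro1-1 mock replicate 3, those in bro1-1 were 2.41 and 2.49 for MIOX1 and -2.89 and -2.97 for MIOX2, again with all 4 calls kept. The genotype difference of MIOX1 at mock, which was not called, was 0.98 without the WT library and 0.45 without the bro1-1 library. That of MIOX4 at mock, with no test, was 2.75 and 2.47.

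As MIOX2 is known to respond to sugar supply, 6 genes induced by darkness and starvation were examined beside it: ASN1, SEN1, DIN10, SEN5, DRM2 and PGPD14. In WT, 2 of 6 were called lower at 2 h (SEN1 and DIN10) and 3 of 6 at 4 h (with DRM2), where 6.8% and 7.41% of all genes were, and the median log2 fold change of the 6 was -1.74 and -1.79. In bro1-1, 6 of 6 were called lower at both times, where 8.45% and 8.24% of all genes were, with medians of -3.35 and -2.84. None was called between the genotypes or in an interaction. The summed TPM of these genes in WT mock was 4581, 19611 and 10315 in replicates 1, 2 and 3, and MIOX2 in the same libraries was at 222, 628 and 365 CPM. Both were lowest in WT mock replicate 1 and highest in WT mock replicate 2, the library that stood apart by its leaf markers. At 2 h in WT the sums were 1031, 1981 and 5334 TPM and MIOX2 was at 74.6, 74.5 and 168 CPM, so that the third library was highest in both. At 4 h in WT the sums were 3473, 2686 and 2857 TPM against 47.7, 53.7 and 84.4 CPM for MIOX2, and here the order was not shared. In bro1-1 mock the sums were 10930, 13470 and 16345 TPM and MIOX2 was at 397, 501 and 457 CPM. At 2 h in bro1-1 the sums were 1196, 1070 and 1771 TPM against 91.1, 36.1 and 53.6 CPM, and at 4 h 2313, 1410 and 975 TPM against 70.6, 73.8 and 24.5 CPM. In each bro1-1 group the lowest library was the same for both and the highest, with MIOX2 in CPM, was not. In TPM, the unit of the sums, MIOX2 was at 352.67, 421.3 and 452.86 at mock and 64.4, 59.68 and 23.36 at 4 h. The order in TPM was thus shared in these groups, and the highest mock library was bro1-1 mock replicate 3, which stood apart by its leaf markers. At 2 h MIOX2 was at 77.87, 28.15 and 45.22 TPM, and the highest library was again not shared. The part of this marker group in the MIOX2 result was not tested.

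MIOX4, a member known mainly from flowers, had few reads. Its counts were 11, 29 and 16 in WT mock, 10, 36 and 29 in WT at 2 h, and 22, 38 and 8 in WT at 4 h. In bro1-1 they were 93, 97 and 69 at mock, 14, 14 and 5 at 2 h, and 8, 12 and 2 at 4 h. The 3 bro1-1 mock libraries were higher than the other 15, and the 3 WT groups overlapped with one another. The exact 95% Poisson interval was 19.4 to 41.6 around the highest WT mock count and 53.7 to 87.3 around the lowest bro1-1 mock count. MIOX4 was chosen for these counts, so the intervals are no test of the difference. These intervals cover counting error only and leave out the spread between libraries. The reads carry no molecular identifiers.

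On the scaled level, MIOX4 was at 1.01 ± 0.495 CPM in WT mock and 5.06 ± 0.97 CPM in bro1-1 mock. It was at 1.61 ± 0.898 and 1.29 ± 0.761 CPM in WT after 2 h and 4 h of ABA, and at 0.7 ± 0.344 and 0.434 ± 0.319 CPM in bro1-1. Comparing bro1-1 with WT, the log2 fold change was 2.31 at mock (SE 0.408, a 4.97-fold difference), -1.19 at 2 h (SE 0.613) and -1.57 at 4 h (SE 0.726). These are the values that chose the family, and the groups at 2 h and 4 h overlapped between genotypes. Within bro1-1 the log2 fold changes of ABA against mock were -2.85 (SE 0.428) and -3.52 (SE 0.535), and within WT they were 0.67 (SE 0.587) and 0.40 (SE 0.603). The WT mock library with the lowest MIOX4 level, at 0.574 CPM, was also the one with the lowest MIOX2 level, and the one with the highest, at 1.55 CPM, also had the highest MIOX2 level. At mock in bro1-1, the highest MIOX4 transcript level, 5.84 TPM, was below the lowest level of MIOX1, 11.3 TPM. Pollen and flower markers summed to 1.43 to 2.6 TPM in bro1-1 mock and to 3.07 to 9.39 TPM in WT mock. Most of this was the floral organ gene PI, at means of 1.6 and 4.42 TPM. AGP6, AP3 and AG were also lower in bro1-1 mock, and the pollen marker AGP11 was higher, at 0.227 against 0.0933 TPM. Only 1 of the 7 markers passed the filter on low counts in this comparison. Root markers summed to 15.3 to 50.2 TPM in bro1-1 mock and 24.8 to 93.7 TPM in WT mock. The part of tissue content in the MIOX4 values was not tested.

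**Figure D3:**
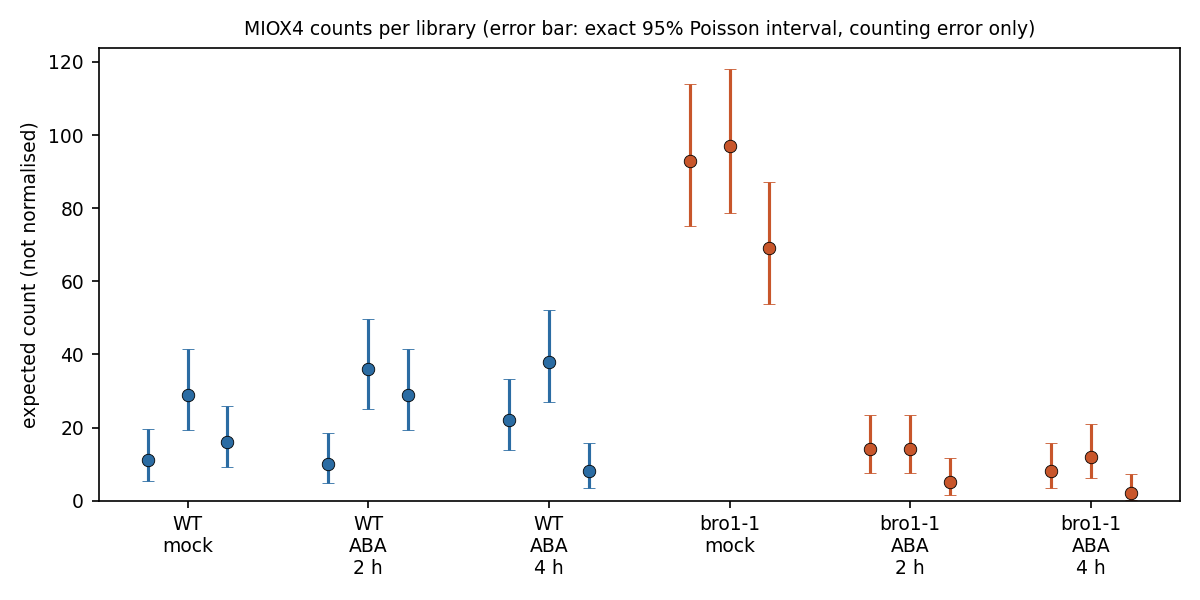
Expected counts of MIOX4 in each library, not normalised, with exact 95% Poisson intervals that cover counting error only (WT in blue, bro1-1 in orange). The bro1-1 mock libraries are at 69 to 97 counts, and the other 15 libraries lie between 2 and 38.

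MIOX4 was also measured by the study with qRT-PCR, and the primer pair is shown because it bears on how far MIOX4 can be told from its close relatives. Capitals mark bases that differ from the most similar site of another family member, which is in MIOX2 for the forward primer, with 2 differences, and in MIOX5 for the reverse primer, with 4.
MIOX4 forward primer: cTtggggCcatgacgactac
MIOX4 reverse primer: GgtgtaTTctccagccGtgt
The forward primer matched chr4:13299436-13299455 and the reverse primer chr4:13299748-13299767 in TAIR10.1, and the product is 125 bases long in both MIOX4 transcripts. The qRT-PCR values were not used here.

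MIOX5 was at 0 in all 18 libraries. A count of 0 allows up to 3 counts, which is 0.168 to 0.193 CPM in single libraries and 0.00984 CPM over the 304844560 counts of all 18 libraries. MIOX5 was not detectable at this depth, and no fold change can be given. It did not pass the filter on low counts, and the other 3 members passed it over all 18 libraries, with 20637 genes in total.

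Between the genotypes, neither MIOX1 nor MIOX2 was called at any point. At mock, MIOX1 was at 8.46, 10.9 and 5.96 CPM in WT and at 11.5, 11.5 and 20.1 CPM in bro1-1. The groups did not overlap in CPM, which held for 5.52% of all genes in this comparison, but they overlapped in TPM, where WT reached 13.5 and bro1-1 began at 11.3, and the log2 fold change of 0.76 (SE 0.308) had an unadjusted p of 0.0412 and an edgeR adjusted p of 1. At 2 h and 4 h the log2 fold changes of MIOX1 were -0.30 (SE 0.298) and -0.16 (SE 0.191), with edgeR adjusted p of 0.878 and 0.783. For MIOX2 they were 0.15 (SE 0.367) at mock, -0.81 (SE 0.411) at 2 h and -0.12 (SE 0.398) at 4 h, with edgeR adjusted p of 1, 0.736 and 0.935. Over all time points, the log2 fold changes of bro1-1 against WT were 0.07 (SE 0.202) for MIOX1 and -0.26 (SE 0.271) for MIOX2, with edgeR adjusted p of 0.974 and 0.904. Calls were rare in these comparisons, at 0.0153%, 0.0308% and 0.0202% of all genes at mock, 2 h and 4 h and 0.0485% over all time points, so the lack of a call sets MIOX1 and MIOX2 apart from few genes.

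Whether the genotypes differed in their response to ABA was tested as an interaction. The difference of the MIOX1 responses, bro1-1 minus WT, was -1.06 on the log2 scale at 2 h (SE 0.472) and -0.91 at 4 h (SE 0.381), with unadjusted p of 0.0448 and 0.0345 and edgeR adjusted p of 0.909 and 0.83, so neither difference held after adjustment over all genes. For MIOX2 the interaction was -0.96 at 2 h (SE 0.614) and -0.26 at 4 h (SE 0.603), with edgeR adjusted p of 0.923 and 0.964. For MIOX4, which was chosen for this difference, the values were -3.50 (SE 0.77) and -3.87 (SE 0.862), with no test. With edgeR, 0% of genes were called in either interaction, and DESeq2 called 17 and 6. An unadjusted edgeR p under 0.05 was found for 1041 of 20330 genes tested at 2 h and 1218 of 20480 at 4 h. Part of the genes tested reach such a p even where none differs. The 2 interactions share their mock libraries, and so do the 2 ABA comparisons within each genotype.

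Around the family, 39 genes that make, carry or use inositol and UDP-glucuronic acid were examined, and all of them were tested. After ABA, 7 were called higher and 1 lower at 2 h in WT, and 5 higher and 2 lower at 4 h. In bro1-1, 9 were called higher and 2 lower at 2 h, and 7 higher and 2 lower at 4 h. Leaving out bro1-1 ABA 4 h replicate 1 raised the 7 to 11, and leaving out single libraries moved the counts of lower genes by 1 at 2 h in WT and at 4 h in both genotypes. The median log2 fold change of the 39 genes was 0.24 and 0.10 in WT and 0.38 and 0.33 in bro1-1 at 2 h and 4 h, where that of all genes was between -0.04 and -0.01. Of all genes, 17.7% and 20.9% were called in either direction in WT and 21.9% and 23.8% in bro1-1, so the counts of both directions together stand near the background. By direction, 10.9% and 13.5% of all genes were called higher in WT and 13.4% and 15.5% in bro1-1. Called lower were 6.8% and 7.41% in WT and 8.45% and 8.24% in bro1-1. At 2 h in both genotypes, the share of the 39 genes called higher was above that of all genes and the share called lower was below it. This was not tested. None of the 39 was called between the genotypes or in an interaction.

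Among the enzymes of inositol synthesis, MIPS2, an inositol-3-phosphate synthase, rose most. It went from 14.5 CPM in WT mock to 157 CPM at 2 h and 123 CPM at 4 h, with log2 fold changes of 3.44 (SE 0.331, edgeR adjusted p = 0.000658) and 3.13 (SE 0.321, edgeR adjusted p = 0.000546). In bro1-1 it went from 9.49 CPM to 196 and 171 CPM, with log2 fold changes of 4.36 (SE 0.34) and 4.19 (SE 0.229). The related MIPS1 was called higher at 2 h, with log2 fold changes of 1.02 in WT and 1.57 in bro1-1, and MIPS3 was called lower at 4 h in WT at -2.03 (SE 0.541, edgeR adjusted p = 0.0256). The WT call of MIPS1 was lost without any of 5 of the 6 libraries in turn, and that of MIPS3 without any of 3. VTC4, an inositol monophosphatase, and the related IMPL1 and IMPL2 were not called. IMPL1 and IMPL2 are in the same list as VTC4, and whether they act in inositol synthesis was not tested.

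The inositol transporters moved in both directions. INT2, a plasma membrane inositol carrier, rose at 2 h and further at 4 h, with log2 fold changes against mock of 1.57 and 3.89 in WT and 1.73 and 3.64 in bro1-1, from 1.08 CPM in WT mock and 1.19 CPM in bro1-1 mock. It was higher at 4 h than at 2 h, by 2.3 in WT (SE 0.187, edgeR adjusted p = 0.00389) and 1.88 in bro1-1 (SE 0.293, edgeR adjusted p = 0.0337). This comparison and that of GAE6 below were chosen after their values were seen. In bro1-1, 0 genes were called between 4 h and 2 h without bro1-1 ABA 2 h replicate 2 or without replicate 3. The bro1-1 call of INT2 between these times was thus lost in both cases. The calls of INT2 at 2 h were lost without single libraries in either genotype, with log2 fold changes from 1.35 to 1.85 where lost. INT4, another plasma membrane inositol carrier, fell in all 4 comparisons, with log2 fold changes of -1.52 and -1.48 in WT and -1.40 and -1.69 in bro1-1, and its WT call at 2 h was lost without WT ABA 2 h replicate 2 (edgeR adjusted p = 0.0525). The tonoplast carrier INT1 was called higher at 2 h in WT, at 1.27, and was at 0.83 in bro1-1 with no call.

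Of the kinases that build inositol phosphates, IPK1, which adds the last phosphate of phytate, was called higher at 2 h in WT at 1.11 (SE 0.153) and in bro1-1 at 1.18 (SE 0.177) and 1.12 (SE 0.162) at 2 h and 4 h. ITPK1 was called at 4 h in both genotypes, at 1.09 and 1.11, and ITPK3 in bro1-1 at both times, at 1.49 and 1.36. Without WT mock replicate 2, ITPK1 at 4 h in WT was at 0.96 and no longer called. The phosphatidylinositol synthases PIS1 and PIS2 were not called.

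Downstream of the oxygenases, the glucuronokinase GLCAK1 and the UDP-sugar pyrophosphorylase USP, which act on the product of the family, were not called, although USP had an adjusted p below 0.05 at 4 h in WT (0.67, edgeR adjusted p = 0.0387) and at both times in bro1-1 (0.81 and 0.92). GLCAK2, listed as a second glucuronokinase and annotated in TAIR10.1 as a galactokinase, was called lower in bro1-1, at -1.78 (SE 0.354, edgeR adjusted p = 0.00635) and -1.90 (SE 0.48, edgeR adjusted p = 0.0151), the latter lost without bro1-1 ABA 4 h replicate 2 (edgeR adjusted p = 0.0543). In WT it was at -1.51 and -2.17 with no call. On the parallel route, the UDP-glucose dehydrogenases UGD2 and UGD3 were called higher at 2 h in bro1-1, at 1.10 and 1.21. Among the users of UDP-glucuronic acid, AXS2, a UDP-apiose/xylose synthase, rose in all 4 comparisons, with log2 fold changes of 1.74 and 1.27 in WT and 1.90 and 1.47 in bro1-1. GAE6, an epimerase that gives UDP-galacturonic acid for pectin, was called at 2 h in WT at 1.71 and in bro1-1 at 1.93 and 1.34, and it was lower at 4 h than at 2 h in WT by a log2 value of -1.03 (SE 0.196). GAE1 was called at 4 h in WT at 1.06, and not without WT ABA 4 h replicate 3, where it was at 0.84. A call in one genotype and not in the other does not show a difference between them.

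**Figure D4:**
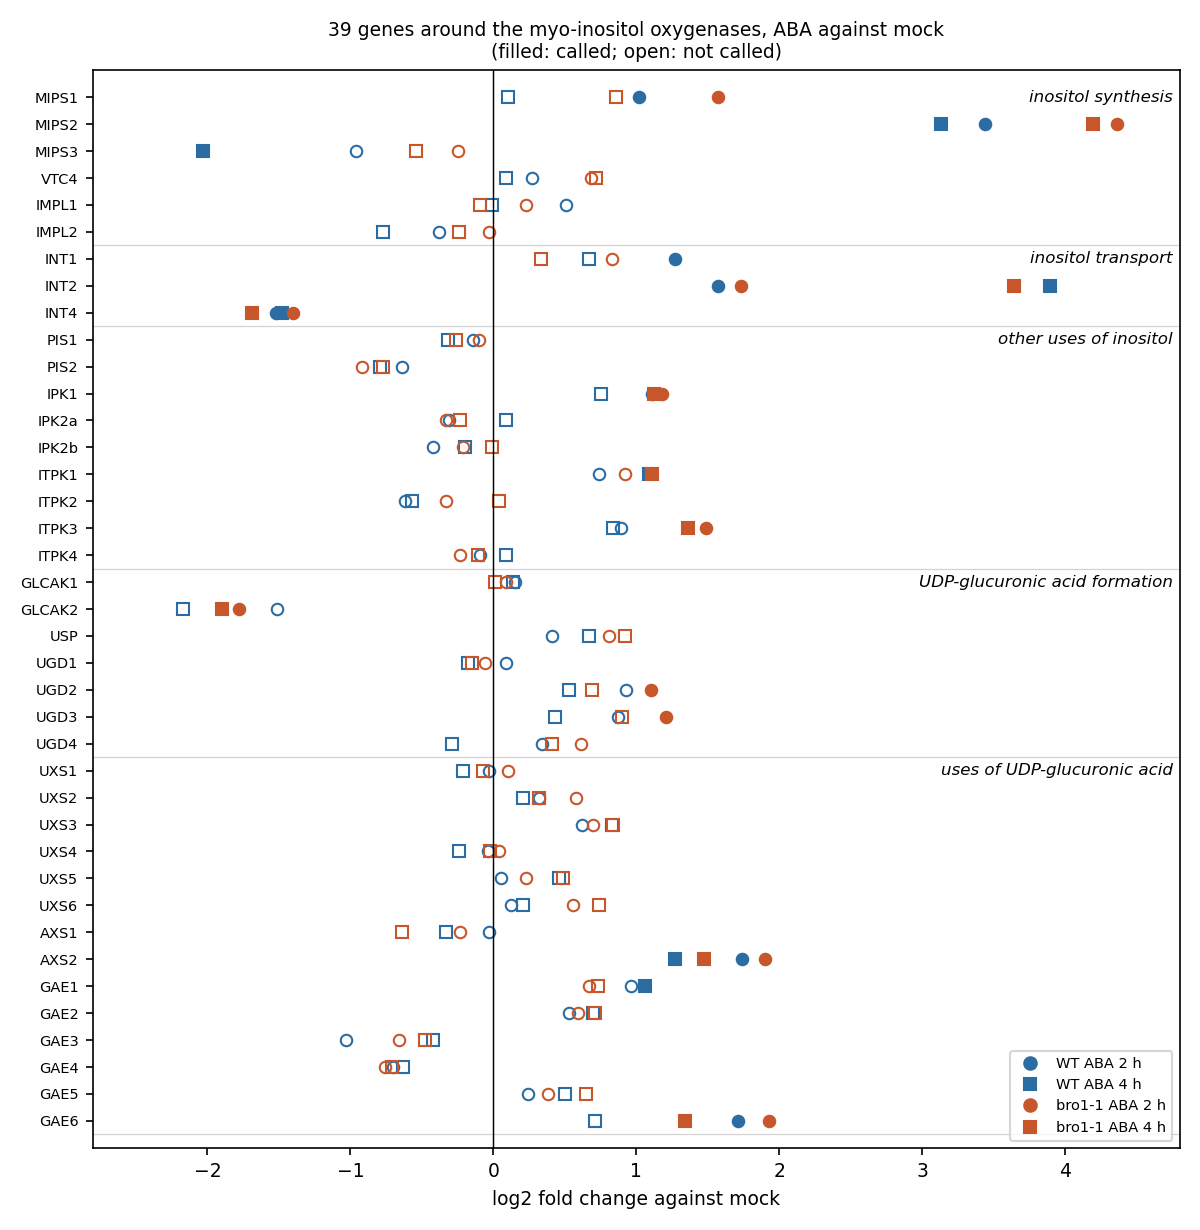
Log2 fold changes of ABA against mock for 39 genes of inositol and UDP-glucuronic acid metabolism, by list, with WT in blue, bro1-1 in orange, circles for 2 h, squares for 4 h and filled symbols for called genes. MIPS2 and, at 4 h, INT2 lie furthest to the right, at 3.13 to 4.36, and INT4 and GLCAK2 lie to the left in both genotypes.

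The genes most like each member over the 18 libraries were ranked by the Pearson correlation of log2 CPM, as a description with no test, over 6 groups of 3 libraries in which mock and ABA values stand apart. For MIOX1 they were NHX3 (r = 0.975), WRKY11 (0.971), RD26 (0.97), AT5G42050 (0.97) and ARA12 (0.97). RD26, a NAC transcription factor of the ABA and dehydration response, went from 22.2 TPM in WT mock to 540 TPM at 2 h. For MIOX2 they were AT1G45163 (r = 0.96), STP14 (0.956), AT2G30600 (0.954), MEMB11 (0.95) and SKdZeta (0.949). STP14, a sugar transporter of the STP family, went from 61 TPM in WT mock to 13.3 TPM at 2 h and from 65.5 to 8.88 TPM in bro1-1. For MIOX4 the closest genes were less alike: AT3G62470 (r = 0.823), NFU3 (0.815), AT5G05360 (0.812), ATOEP16-4 (0.788) and AT1G55000 (0.784). Between the members, r was -0.784 for MIOX1 and MIOX2, -0.374 for MIOX1 and MIOX4, and 0.649 for MIOX2 and MIOX4.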

How the data were processed

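Total RNA of whole seedlings was sequenced, and the authors trimmed the reads with BBDUK2, removed ribosomal RNA reads with Bowtie2 2.3.5.1 and estimated expression with RSEM 1.2.30. The genome build, annotation release and strand setting are not given in the sources used here. The authors deposited expected counts (RSEM estimates that need not be whole and are unscaled) and TPM, scaled by RSEM inside every library. Expected counts were rounded and tested with edgeR 4.0.16 in R 4.3.3 (filterByExpr, TMM, quasi-likelihood test, Benjamini-Hochberg over all genes tested), each comparison on its own libraries, with no covariate except the time point in the fit over all 18 libraries. The standard error is the absolute log2 fold change divided by the square root of F. CPM uses TMM factors over all 18 libraries. As alternatives, the tests were repeated with DESeq2 1.42.0, scaling by relative log expression, no filter, a replicate block, all 18 libraries in 1 fit, leaving out each library, CPM for shares, and for likeness Spearman correlation or a prior count of 0.5 in place of 2. Both tools were tested on simulated data.

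The members and gene lists were chosen with earlier results of these data known. Named genes are the members, AtBro1, the called genes of each list with the highest and lowest log2 fold change wherever ABA was set against mock, listed genes called between genotypes, and the 5 genes most like each member; the other genes named were picked after their values were seen.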

Additional observations from a re-analysis of the deposited data

How the results depend on the processing

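Outside of leaving out libraries, no direction or call of MIOX1 or MIOX2 changed, and MIOX2 made up 45.4% of the family at 4 h in WT by CPM, against 40.3% by TPM. Leaving out 1 library at a time, MIOX2 at 2 h in WT ranged from -2.45 to -1.48, losing its call in 3 cases, and the direction turned only for differences that were not called: between 4 h and 2 h for MIOX1, from -0.27 to 0.11 in WT and from -0.16 to 0.52 in bro1-1, and for MIOX2 in bro1-1, from -0.36 to 0.36; between genotypes for MIOX2 at mock, from -0.14 to 0.60, and at 4 h, from -0.35 to 0.24; for MIOX1 at 4 h, from -0.30 to 0.03, and over all time points, from -0.06 to 0.17; and for the MIOX2 interaction at 4 h, from -0.75 to 0.07. Differences of MIOX4 moved by less than the spread between libraries under every alternative.

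Counts of called genes depended on the tool. DESeq2 called 1076 genes against 716 between 4 h and 2 h in WT and 690 against 211 in bro1-1, and between genotypes 6 against 3 at mock, 73 against 6 at 2 h, 267 against 4 at 4 h and 22 against 10 over all time points. At 4 h between genotypes, 18 genes were called with no filter, 9 with all 18 libraries in 1 fit, and 2 to 34 without single libraries. Without single libraries, the counts ranged from 246 to 861 between 4 h and 2 h in WT and from 0 to 355 in bro1-1, and between genotypes from 0 to 2 at mock and from 1 to 8 at 2 h. Of the 39 pathway genes, 2 against 1 were called lower at 2 h in WT with DESeq2 or with all libraries in 1 fit, and 1 against 2 at 2 h in bro1-1 with all libraries in 1 fit, where GLCAK2 (-1.77, edgeR adjusted p = 0.0591) was no longer called. Without single libraries, the pathway genes called lower were 0 to 2 at 2 h in WT (0 without WT ABA 2 h replicate 2, 2 without WT mock replicate 2 or WT ABA 2 h replicate 1), 1 against 2 at 4 h in WT (without WT mock replicate 3, WT ABA 4 h replicate 1 or 3) and 1 against 2 at 4 h in bro1-1 (without bro1-1 ABA 4 h replicate 2), and 11 against 7 were called higher at 4 h in bro1-1 without bro1-1 ABA 4 h replicate 1. The 5 genes most like a member shared 1, 0 and 1 genes with those by Spearman correlation for MIOX1, MIOX2 and MIOX4, and 3 for MIOX4 with a prior count of 0.5. The cause of these changes was not tested.

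Libraries of the same replicate number correlated from -0.411 to 0.463 in their deviations from the group means, and in 0 of 9 comparisons were all such correlations over 0.1, so the numbers were not taken to pair libraries. With a replicate block, the log2 fold change of MIOX2 at 2 h in WT was -1.91 (edgeR adjusted p = 0.0284), and 2 genes were called between 4 h and 2 h in bro1-1, 0 between genotypes at mock and 1 at 2 h. For MIOX4, 2 to 38 counts in 15 libraries limit the precision of every value.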

Other observations

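RSEM reports for each gene a length averaged over its transcripts by their estimated shares. For MIOX4, whose transcripts are 1496 and 1324 bases long, this length was 1372.25, 1389.6 and 1376.91 bases in the bro1-1 mock libraries, which had 69 to 97 counts. In the WT mock libraries, with 11 to 29 counts, it was 1324, 1496 and 1496 bases, each the length of a single transcript. At so few counts the shares of the 2 transcripts were not measured with useful precision, and no comparison between groups was made.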
